A study of Mus musculus with 16 samples.

Results

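Mouse 4T1 mammary tumors that had been treated with paclitaxel were compared between the liver and the mammary fat pad, using 8 of the 16 bulk RNA-seq libraries of the study: every library of a paclitaxel-treated liver tumor (5 libraries, post_Liver 1 to 5) and every library of a paclitaxel-treated fat pad tumor (3 libraries, post_SC 1 to 3). 4T1 is a BALB/c mammary carcinoma cell line. All hosts were wild-type female BALB/c mice of 6 weeks. Fat pad tumors, which the submitters call subcutaneous, were started from 400000 cells in a mammary fat pad, and liver tumors from 200000 cells placed under the capsule of the left lobe, so that organ and number of implanted cells cannot be told apart. Paclitaxel, a drug that stabilises microtubules, was given into the peritoneum at 10 mg/kg, 5 times a week for 2 weeks. The 8 untreated libraries (pre_Liver 1 to 5 and pre_SC 1 to 3), with the same line, hosts and sites, served for comparison, and the stated control was PBS. Tumors grown for 15 days were digested with enzymes, and RNA came from frozen suspensions that still held host cells. The labels state neither the mouse behind each library nor the time at which the untreated tumors were taken, so that p-values reflect only how these libraries vary, which may be technical. In bulk RNA, fewer cells of a type and less RNA per cell cannot be told apart.

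Liver tumors hold hepatocytes from the surrounding organ, whose transcripts are very abundant. A gene was therefore set apart, and counted separately, when it stood on a list of hepatocyte genes or hepatocyte functions. Genes were also set apart when their log2 level had a Pearson correlation of at least 0.8 with albumin (Alb) over the 10 liver libraries. Lists of Kupffer, sinusoidal endothelial, stellate and biliary cells were not part of the rule, so genes not set apart still include some of these cells. The rule set apart 1451 of the 17428 genes shared by the tables, 135 of them by list and 1437 by the albumin rule, with 121 under both. Levels are given as rescaled TPM, which is the share of a transcript, corrected for its length, scaled so that the shared genes of a library sum to 1000000. Differences are log2(rescaled TPM + 1) of liver minus fat pad with their SE from limma, a scale that understates the change of genes with low values. A gene was called when its Benjamini-Hochberg adjusted p was under 0.05.

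Neutrophils are made in the bone marrow in ordered steps. Promyelocytes make the proteins of the primary granules, among them myeloperoxidase and the serine proteases elastase, proteinase 3 and cathepsin G. Myelocytes then make those of the secondary granules, such as lactoferrin and cathelicidin. Mature neutrophils of blood and tissue have largely ceased transcription of both sets and carry chemokine and cytokine receptors. The 4T1 model is known for secretion of G-CSF and for large numbers of immature granulocytes in its hosts, and the liver is an organ in which blood formation can resume outside the marrow.

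The upstream sequences of granule genes are shown because these genes carried the widest difference between treated liver and treated fat pad tumors among the genes not set apart. Sequences are from RefSeq, build GRCm38.p6, plus strand. Each window lies in the 250 bases before the RefSeq start and ends at the base before the first exon that GENCODE places there, with at most 160 bases shown, which leaves 47 for Mpo. For Prtn3, GENCODE also has a transcript that begins further upstream, so that its window lies inside the annotated gene. The windows are chr11:87793534-87793580 for Mpo, chr10:79886087-79886246 for Elane, chr10:79879454-79879613 for Prtn3, chr9:110419587-110419746 for Ngp and chr9:111019111-111019270 for Ltf. Capitals mark GAGGAAG, a spelling of the PU.1 and ETS core, in the 3 primary granule genes, and TTNNGNAA, a spelling of the C/EBP site on either strand, in Ngp and Ltf.
Mpo: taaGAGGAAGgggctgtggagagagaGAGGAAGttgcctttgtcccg
Elane: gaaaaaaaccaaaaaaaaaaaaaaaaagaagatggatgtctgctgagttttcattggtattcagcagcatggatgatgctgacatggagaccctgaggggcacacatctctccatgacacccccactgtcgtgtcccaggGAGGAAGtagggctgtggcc
Prtn3: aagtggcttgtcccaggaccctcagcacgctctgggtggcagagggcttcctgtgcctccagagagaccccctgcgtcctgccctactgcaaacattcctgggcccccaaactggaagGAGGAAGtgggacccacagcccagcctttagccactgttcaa
Ngp: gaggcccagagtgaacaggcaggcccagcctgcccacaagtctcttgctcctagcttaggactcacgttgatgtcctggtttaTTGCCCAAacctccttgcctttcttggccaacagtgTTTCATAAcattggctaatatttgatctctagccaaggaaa
Ltf: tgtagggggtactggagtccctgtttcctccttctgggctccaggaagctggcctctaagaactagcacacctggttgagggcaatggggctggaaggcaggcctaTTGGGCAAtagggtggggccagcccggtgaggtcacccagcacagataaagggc
Within 250 bases before the start and on both strands, GAGGAAG was found in 4 of the 6 matched primary granule genes (Mpo, Elane, Prtn3 and Ctsg, whose match lies outside the 160 bases nearest its start, so that Ctsg is not shown), in 1 of the 7 secondary granule genes and in 10.4% of 27025 promoters. TTNNGNAA was found in 2 of 6 primary and 6 of 7 secondary granule genes and in 36.9% of promoters. The narrower spelling TTGCNNAA, every match of which is also a match of TTNNGNAA, was found in 1 of 6, 3 of 7 and 9.55%, the palindrome TTGCGCAA in 0 of 6, 0 of 7 and 0.17%, and the RUNX core TGTGGT in 1 of 6, 1 of 7 and 14.2%. The genes and the 5 spellings were chosen after the values were seen, and a match is a description of letters, not of a bound site.

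Treated liver tumors held high levels of primary granule transcripts, and treated fat pad tumors held almost none. Mpo (chr11, 87793581 to 87804413, plus strand, GRCm38), which encodes myeloperoxidase, stood at 637, 429, 413, 632 and 124 rescaled TPM in post_Liver 1 to 5 and at 0.15, 0.0379 and 0.326 in post_SC 1 to 3. Elane (chr10, 79886247 to 79888215, plus strand), which encodes neutrophil elastase, stood at 577, 412, 417, 647 and 135 in liver and at 0, 0.227 and 0.307 in the fat pad. The lowest liver library, post_Liver 5, was far above every fat pad library for both genes. The log2 difference was 8.39 ± 0.49 for Mpo (limma adjusted p = 7.97e-05) and 8.37 ± 0.46 for Elane (limma adjusted p = 5.84e-05). Prtn3, the gene of proteinase 3 and a neighbour of Elane, read 646, 472, 519, 792 and 182 in liver against 1.07, 1.25 and 1.48, a difference of 7.70 ± 0.42. Ctsg, the gene of cathepsin G, read 332, 169.6, 168, 304 and 57.4 against 0.0939, 0 and 0.288, a difference of 7.30 ± 0.51. Ms4a3, a membrane protein of granulocyte-monocyte progenitors, read 155, 115, 122, 154 and 29 against 0.188, 0 and 0.192, a difference of 6.49 ± 0.51. Fcnb, the gene of ficolin B, ranged from 16.7 to 87 in liver and was listed at 0 in every treated fat pad library, so no fold is given. All 7 tested genes of the primary granule list were called higher in liver, where 6.62% of the 13952 genes tested were called higher, and their median difference was 7.30 against -0.08 over all genes tested. The summed level of the list was 2492, 1717, 1726, 2689 and 559 in liver and 1.95, 2.01 and 2.7 in the fat pad. This list was written after the values were seen.

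**Figure D1:**
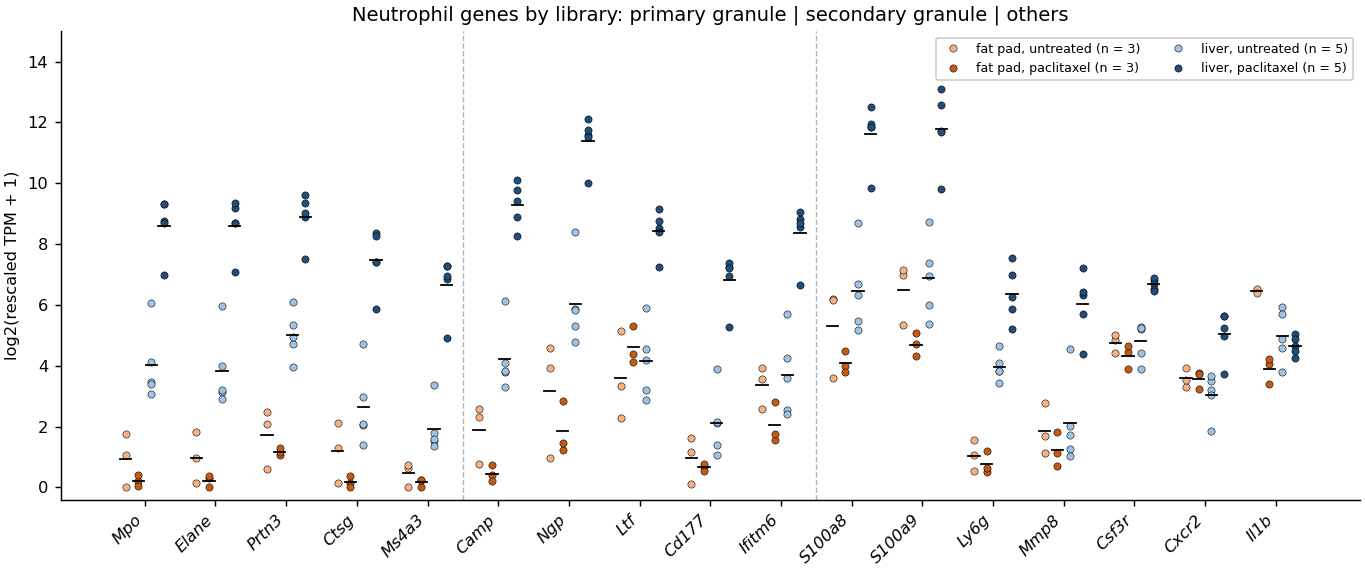
Log2(rescaled TPM + 1) of 17 neutrophil genes in each of the 16 libraries, with a point for each library and a bar for the mean of each of the 4 groups. For the 5 primary granule genes at the left, every treated liver point stands above every point of the other groups, while for Cxcr2 and Il1b at the right the treated liver and treated fat pad points lie much closer together.

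Secondary granule transcripts differed in the same direction. Ngp (chr9, 110419747 to 110423012, plus strand), which encodes neutrophilic granule protein, read 3072, 4447, 2960.1, 3444 and 1031 in post_Liver 1 to 5 and 1.37, 1.74 and 6.2 in post_SC 1 to 3, a difference of 9.55 ± 0.51 (limma adjusted p = 5.84e-05). Camp (chr9, 109847379 to 109849617, minus strand), the gene of cathelicidin, read 476, 1116, 883, 684 and 307 against 0.319, 0.17 and 0.652, a difference of 8.85 ± 0.39 (limma adjusted p = 2.33e-05). Each liver library exceeded each fat pad library by a wide margin for both genes, with post_Liver 5 again the lowest. Ltf, the gene of lactoferrin, had a smaller difference of 3.81 ± 0.43, with 369.6, 564, 340.0, 435 and 151 in liver against 20.1, 38.5 and 16.5. Cd177, a surface protein of neutrophils, differed by 6.16 ± 0.45 and Ifitm6 by 6.31 ± 0.54. Lcn2, which encodes lipocalin 2 and is also made by epithelium, was abundant at both sites, at 3466, 2992, 2549.7, 4316 and 1747 in liver and 1657, 1468 and 2535 in the fat pad. Its groups overlapped and it was not called (0.65 ± 0.33, limma adjusted p = 0.224). In all, 6 of 7 members of the secondary granule list, also written after the values were seen, were called higher, beside 6.62% of all genes tested. The median difference of the list was 6.16.

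The alarmins of the neutrophil cytosol and the lineage antigen followed. S100a8 read 3710.0, 5809.8, 3979, 3729.9 and 920.3 in liver against 15, 12.9 and 21.7 in the fat pad, a difference of 7.51 ± 0.53. S100a9, its partner subunit in calprotectin, read 3343, 8871, 6135, 3309 and 891 against 25.1, 19 and 32.7, a difference of 7.08 ± 0.64. Here post_Liver 2 and 3 were the highest libraries, unlike for the primary granule genes. Ly6g, the antigen used to sort mouse neutrophils, read 57.2, 187, 126, 75.9 and 35.7 against 0.413, 1.27 and 0.556, a difference of 5.60 ± 0.49. BC100530, a stefin A-like gene, differed by 5.75 ± 0.83. As its family holds near-identical copies, reads may have been split among them.

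Other neutrophil genes, some of them of later stages, differed by unequal amounts, and no test compared the stages. Csf3r, the G-CSF receptor, read 112, 118, 102, 90.2 and 87.9 in liver against 20.9, 24.3 and 13.9, a difference of 2.34 ± 0.21. Mmp8, the neutrophil collagenase, differed by 4.79 ± 0.57, with 149, 79.8, 51.4, 84.4 and 20 against 0.639, 1.21 and 2.51. Retnlg, a resistin-like protein of neutrophils, read 311, 586, 422, 236 and 80.5 against 9.99, 2.92 and 11.1, a difference of 5.08 ± 0.63. Each liver library exceeded each fat pad library for these 3 genes. Cxcr2, the receptor through which mature neutrophils leave the marrow, read 48.9, 48.8, 36.6, 30.6 and 12.3 against 12.4, 12.4 and 8.5, so that post_Liver 5 fell inside the fat pad range, and it was not called (1.47 ± 0.42, limma adjusted p = 0.0624). Il1b was likewise not called (0.78 ± 0.26, limma adjusted p = 0.0936). Mmp9, gelatinase B, went the other way, at 104, 62.3, 40.8, 78.7 and 81.9 in liver against 189.7, 159.7 and 198 in the fat pad (-1.36 ± 0.28, limma adjusted p = 0.0192). The call of Mmp9 was lost under the fit to all 16 libraries (adjusted p = 0.25), when rescaled without the set-apart genes (0.0746) and without post_SC 1, 2 or 3 (0.0878, 0.0501 and 0.0989), with 0.00596 to 0.25 over its alternatives. It is also made by tumor and stromal cells. Of 10 genes of the list of tertiary granule and mature neutrophil genes, written after the values were seen, 6 were called higher and 1 lower, with a median of 1.52. Among all genes tested, 6.62% were called higher and 2.8% lower. Over the wider neutrophil list, 18 of 23 genes were called higher and Mmp9 lower, with a median of 4.79. The number called in either direction stayed between 15 and 21 under the alternative settings and left-out libraries tried, and none of these genes was set apart.

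Transcription factors and growth factor genes of the granulocyte line were read beside these. Cebpe, the factor needed for secondary granule formation, stood at 40, 34.4, 21.9, 46.2 and 11.2 in liver and 0.376, 0.0757 and 0.0767 in the fat pad, a difference of 4.61 ± 0.43. Gfi1, a repressor needed for neutrophil commitment, stood at 10.7, 11.4, 12.6, 9.32 and 6.26 against 0.451, 1.12 and 0.595, a difference of 2.67 ± 0.27. Each was called, with every liver library above every fat pad library. Myb, a factor of blood progenitors, was not called (1.77 ± 0.49, limma adjusted p = 0.0565). Csf3, which encodes G-CSF, read 21, 25.8, 20.8, 5.27 and 21.8 in liver and 37.4, 31.7 and 46.6 in the fat pad, and was not called either (-1.13 ± 0.45, limma adjusted p = 0.147). Of 13 genes of the list of blood progenitor and granulocyte factors, 4 were called higher, and of 12 granulocyte growth factors and receptors, 3 were. Over all genes tested 6.62% were called higher, and both lists were written after the values were seen. Csf2ra, the GM-CSF receptor, was called (1.62 ± 0.28, limma adjusted p = 0.00899) but not without post_SC 3 (adjusted p = 0.0576, with 0.0022 to 0.0576 over its alternatives).

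The granule difference was much larger after paclitaxel than in untreated tumors. Mpo ranged from 7.34 to 66.3 in the 5 untreated liver tumors and from 0 to 2.37 in the 3 untreated fat pad tumors, a difference of 3.08 ± 0.69. Ngp ranged from 26.3 to 339 in untreated liver and from 0.943 to 22.9 in untreated fat pad tumors, a difference of 2.89 ± 0.98. S100a9 ranged from 40.9 to 421 and from 39.6 to 140, a difference of 0.40 ± 0.74 that was not called. Set beside the treated values, these genes stood higher in every treated than in every untreated liver library, and for S100a9 every treated fat pad library lay below every untreated one. The test of the change in site difference, fitted to all 16 libraries, gave 5.30 for Mpo (limma adjusted p = 0.00926), 6.66 for Ngp (limma adjusted p = 0.0113) and 6.68 for S100a9 (limma adjusted p = 0.007). These 3 calls held when rescaled without the set-apart genes, under median of ratios scaling and with each library left out. Quantile normalization and another pseudocount were not tried for this test. This test called 2.98% of 13875 genes (2.19% with a larger difference in liver after treatment, 413 in both directions, ranging from 92 without pre_SC 3 to 2599 without pre_Liver 2). It called 6 of the 7 primary granule genes, 4 of the 7 secondary granule genes and 17 of the 23 genes of the neutrophil list. The primary granule count was 6 in every alternative of this test, while the count for the neutrophil list fell to 11 when rescaled without the set-apart genes and without pre_SC 2 or post_SC 3, and to 10 without pre_SC 3 or post_SC 1.

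Neutrophil and hepatocyte transcripts were set side by side in each treated liver library. The summed neutrophil list was 18176, 26864, 19537, 19019 and 5952 rescaled TPM in post_Liver 1 to 5 and 1986, 1771 and 2889.6 in post_SC 1 to 3. Untreated tumors gave 556 to 2264 in liver and 1358 to 2671 in the fat pad. The hepatocyte list summed to 50663, 6847, 5824, 135778 and 50541 in post_Liver 1 to 5, so that post_Liver 2 and 3 held the least hepatocyte RNA and no less neutrophil RNA than the others, while post_Liver 5 held the least neutrophil RNA. Only 5 libraries stand behind this, and no correlation was computed.

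**Figure D2:**
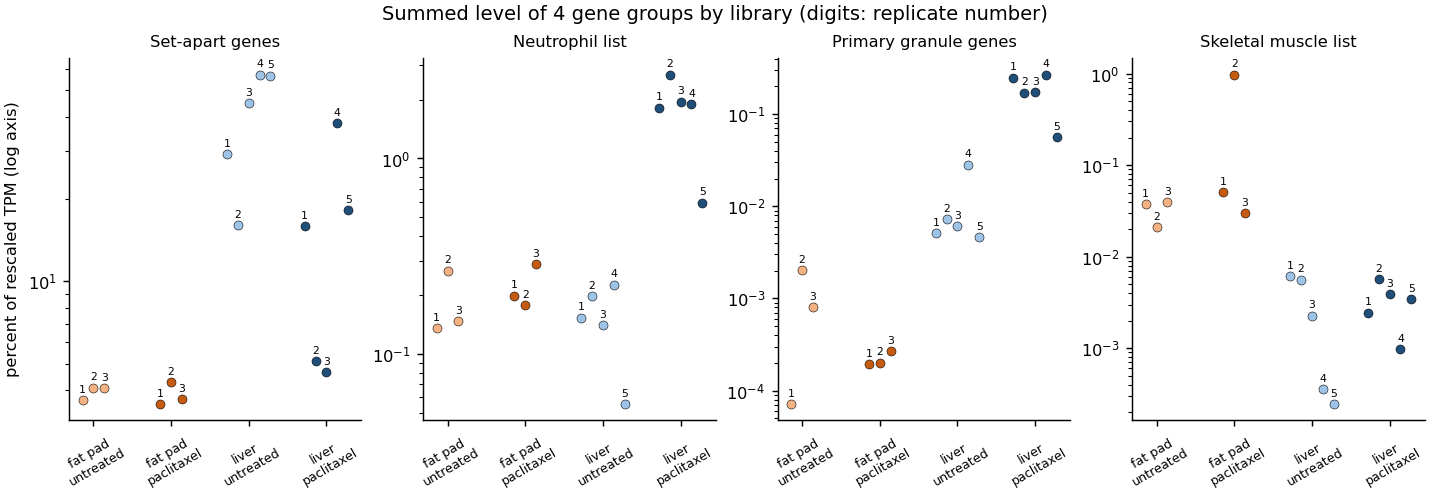
Percent of rescaled TPM, on a log axis, taken by the set-apart genes, the neutrophil list, the primary granule genes and the skeletal muscle list, with a digit for each library giving its replicate number within its group. Treated liver libraries take the highest positions for the neutrophil list and the primary granule genes, and set-apart genes take 4.66% to 37.9% of treated liver libraries against 3.57% to 4.28% of treated fat pad libraries.

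Some properties of the libraries touch every result. Treated liver values and treated fat pad values come from separately normalised tables, and site and table cannot be told apart beyond the check of scale described under processing. Post_Liver 2 and 3 were close to each other, with a correlation of 0.992 and 0.738% of 13952 genes differing more than 2-fold, and stood apart from the other 3 by their low hepatocyte content. Without both, 2356 genes were called higher and 2484 lower in liver, against 923 and 390 with all libraries. Leaving out post_SC 1 gave 375 and 94, post_SC 2 gave 598 and 174, post_SC 3 gave 315 and 97, and post_Liver 1 gave 542 and 197. Keratin 8 (Krt8), an epithelial gene on the carcinoma list, was present in all 8 libraries at 404 to 752 rescaled TPM. Its level did not follow other epithelial genes in post_Liver 4, where Krt8 read 404 but Cdh1 30.8 and Cldn4 67.2. The other treated liver libraries read 125 to 196 for Cdh1 and 336 to 490 for Cldn4. Whether Krt8 RNA came from carcinoma cells alone was not tested. Adipoq, the fat cell hormone adiponectin and a defining marker of fat, read 0.0752, 13.1 and 0 in post_SC 1 to 3, and the adipocyte list summed to 93.7, 671 and 54.3, against 86.1 to 122 in treated liver. Post_SC 2 was thus the highest treated library for fat cell genes, with the other fat pad libraries near the liver level.

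Other blood cells were also unequal between sites. Ppbp, a platelet chemokine, read 18.5, 23.2, 22.9, 38.1 and 13.1 in liver against 0.169, 0.284 and 0.518, a difference of 4.12 ± 0.32 (limma adjusted p = 0.000366). Pf4, platelet factor 4, read 23.9, 22.8, 26.7, 37.3 and 29.7 against 4.26, 4.26 and 2.67, a difference of 2.62 ± 0.23. For both, every liver library exceeded every fat pad library. In untreated tumors Pf4 had differed the other way, by -1.89 ± 0.44, with 6.71 to 16.9 in liver and 17.5 to 68.8 in the fat pad, and the change in site difference was 4.51 (limma adjusted p = 0.00108). Of 8 platelet genes tested, 4 were called higher, the others of these being Gp9 (1.97 ± 0.26) and Gp5, beside 6.62% of all genes tested. The list held 10 genes, and the filter on the mean of the 8 libraries can be passed through liver values alone. Gp5 differed by 1.44 ± 0.26, and its call was lost without post_SC 1 or post_SC 3 and after quantile normalization (adjusted p = 0.0553, 0.054 and 0.0696, with 0.00294 to 0.0696 over its alternatives).

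Granule genes of eosinophils stood higher in treated liver. Prg2, the gene of major basic protein, read 91.2, 32.4, 31.3, 106 and 14.5 in liver against 0.451, 0.492 and 0.115, a difference of 5.03 ± 0.60. Epx, eosinophil peroxidase, differed by 3.68 ± 0.62, a call lost without post_SC 3 (adjusted p = 0.0524, with 0.000791 to 0.0524 over its alternatives). Of 8 eosinophil genes, a list written after the values were seen, 5 were called higher, beside 6.62% of all genes tested. The call of Ear2 was lost in 4 alternatives (limma adjusted p = 0.00163 to 0.14 over its alternatives). That of Siglecf was lost in 7 (0.00898 to 0.151). Prg2 also stands on the primary granule list, where it is 1 of the 7. Of 11 genes of mast cells and basophils, 1 was called: Mcpt8, a basophil protease, at 20.2, 28.9, 27.9, 19.6 and 5.58 against 2.82, 1.1 and 1.04 (2.91 ± 0.50, adjusted p = 0.0589 without post_SC 3, with 0.000691 to 0.0589 over its alternatives).

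Genes of macrophages and lymphocytes were read in the same way. Of 22 genes of tumor macrophages and monocytes, 2 were called, a share close to the 9.41% of all genes. Chil3, a chitinase-like protein of myeloid cells that stands on both the macrophage and the secondary granule list, read 375, 145, 86.3, 257 and 356 in liver against 28.1, 19.7 and 11.9, a difference of 3.43 ± 0.50. Ly6c2, a monocyte surface antigen, was called at 1.44 ± 0.33 but lost its call in 8 alternatives, among them without post_SC 1, 2 or 3 and without post_Liver 1 or 5 (limma adjusted p = 0.00379 to 0.124). Of 17 T cell genes limma called 0, and 0 passed an unadjusted p under 0.05: Cd8a read 16.1, 12.8, 9.63, 13.5 and 49.2 in liver and 11.2, 24.2 and 12.1 in the fat pad. Of 19 genes of NK cells and cytotoxicity 1 was called, and of 11 B and plasma cell genes 1, Cd37 (2.27 ± 0.23), a tetraspanin found on several leukocytes. Of these 11, 7 had a limma unadjusted p under 0.05, beside 3966 of the 13952 genes tested. Groups did not overlap for 8 with liver higher (14.1% of all genes) and 1 with liver lower (13.7%). The summed B cell list was 133, 92.2, 70.3, 3227 and 1730 in post_Liver 1 to 5. It was 20.8, 28.5 and 15.7 in post_SC 1 to 3. The antibody joining chain Jchain was uneven, at 41.5, 12.5, 5.1, 2592 and 1355 in liver against 0.357, 0.701 and 0.422, and was not called (6.13 ± 1.94, limma adjusted p = 0.0819). Of 12 MHC class II genes and 17 class I genes limma called 0, with 2 and 1 at an unadjusted p under 0.05. Nt5e, which encodes the adenosine-producing enzyme CD73, read 47.2, 25, 14.4, 37 and 76.7 in liver against 187, 149 and 207, a difference of -2.34 that was lost without post_SC 1 or post_SC 3 (adjusted p = 0.0745 and 0.0885, 0.00127 to 0.0885 over its alternatives).

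Hepatocyte transcripts, set apart, gave the largest differences. Alb (chr5, 90460897 to 90476602, plus strand) read 10786, 872, 734, 21906 and 11071 in liver against 1.71, 2.65 and 2.67, a difference of 10.38 ± 1.13 (limma adjusted p = 0.00149). The plasma protein gene Ahsg differed most (10.69 ± 0.95), and Apoa2 (9.84 ± 0.85), Apoa1 (9.80 ± 0.93) and Gc (9.65 ± 0.79) came after Alb. Of 38 hepatocyte genes 32 were called higher, with a median of 7.43, beside 6.62% of all genes tested called higher. In untreated tumors 37 were called higher, with a median of 9.85, beside 14.9% of all genes tested. Alb ranged there from 8231 to 61264 in liver. Of the 1361 set-apart genes tested, 27.9% were called higher and 0.294% lower, and 375 of those 380 higher genes had also been called higher before treatment.

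Genes of other liver-resident cells were read beside the hepatocyte genes. Cd5l, a secreted protein of Kupffer cells, the macrophages of the liver, read 82.7, 15.4, 13.5, 127 and 26.4 in liver against 0, 0.0568 and 0, a difference of 5.19 ± 0.71. Of 10 Kupffer cell genes 5 were called higher, and 7 of the 10 were set apart. Of 13 genes of the sinusoidal endothelium 6 were called higher, and 10 were set apart. Of 13 stellate cell genes, 6 were called higher and 1 lower, with a median of 1.92. Over all genes tested, 6.62% were called higher and 2.8% lower. Hgf, the ligand of the receptor Met and a product of stellate and other mesenchymal cells, read 12.1, 8.56, 9.65, 8.94 and 8.16 against 1.63, 2.69 and 1.15, a difference of 1.92 ± 0.25. Bmp5, a BMP ligand, differed by 2.13 ± 0.22 and Vipr1, a neuropeptide receptor, by 2.18 ± 0.32. Unlike albumin, Hgf and Bmp5 were about level over the 5 liver libraries, with Bmp5 between 5.08 and 7.21, and neither was set apart.

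**Figure D3:**
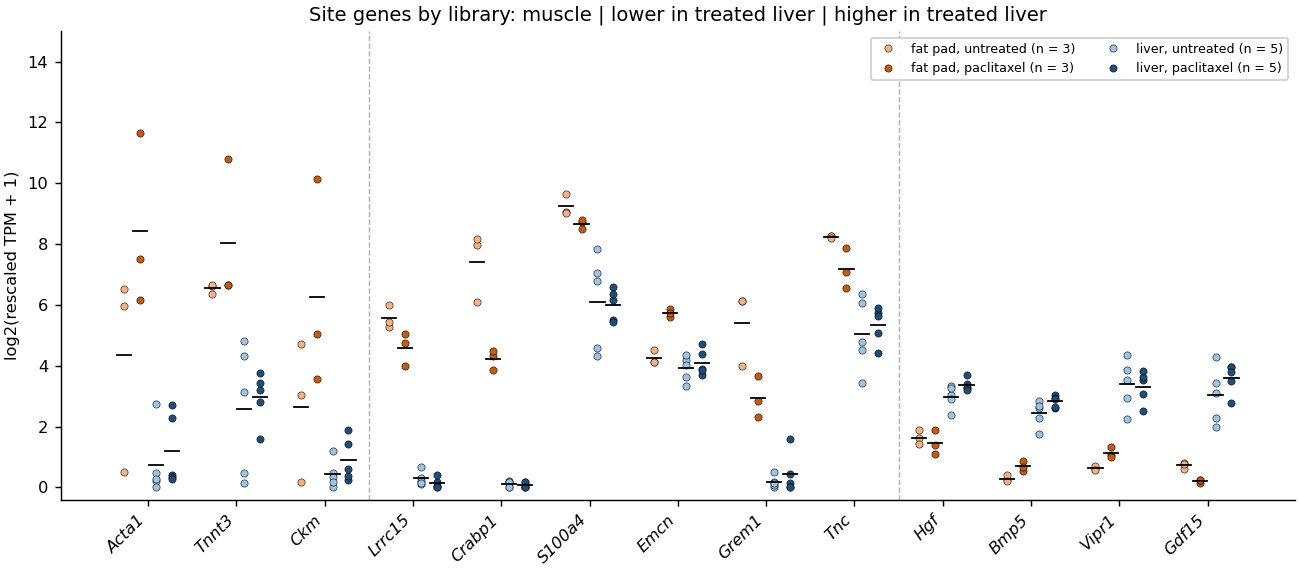
Log2(rescaled TPM + 1) in each of the 16 libraries for 3 skeletal muscle genes, 6 stromal genes and 4 genes higher in liver, with a bar for the mean of each group. Acta1 is spread over the 3 treated fat pad libraries from 70.7 to 3230.2 rescaled TPM, while Lrrc15 and Crabp1 stand near 0 in all liver libraries.

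Among genes higher in the fat pad, those of skeletal muscle led. Acta1, the actin of skeletal muscle, read 0.333, 5.48, 3.85, 0.266 and 0.215 in liver against 181, 3230.2 and 70.7, a difference of -7.24 ± 1.16 (limma adjusted p = 0.00657). Of 12 muscle genes 9 were called lower in liver, with a median of -3.99, beside 2.8% of all genes tested called lower. Post_SC 2 was far above the rest, with a summed list of 9752 against 512 and 297 in the other fat pad libraries and 9.72 to 57.3 in liver. Without it 8 were called, with a median of -2.70. The count was 2 without post_SC 1 or without post_Liver 1, 3 without post_Liver 5, and 5 without post_Liver 4. Acta1 and Tnnt3 (-5.08 ± 0.93) kept their calls in all of these, as did Sln (-4.22 ± 0.61), a muscle gene that is not on the list. In untreated tumors the list had a median of -2.59. The part of muscle next to the fat pad in the other differences was not tested.

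Some stromal genes of the fat pad tumors were low or near 0 in liver. Lrrc15 (chr16, 30269302 to 30283256, minus strand), a membrane protein of myofibroblastic carcinoma-associated fibroblasts, read 0.137, 0.0367, 0, 0.019 and 0.333 in liver against 31.6, 14.9 and 25.9, a difference of -4.45 ± 0.28 (limma adjusted p = 0.000125). Crabp1 (chr9, 54764748 to 54773110, plus strand), a retinoic acid binding protein of some fibroblasts, read 0.137, 0, 0.128, 0 and 0 against 13.4, 19 and 21.4, a difference of -4.15 ± 0.23 (limma adjusted p = 5.84e-05). In untreated fat pad tumors Crabp1 had stood at 68 to 288, and the change in its site difference was 3.16 (limma adjusted p = 0.00642), while Lrrc15 had stood at 37.5 to 63.5. S100a4, a calcium-binding protein of fibroblasts and motile cells, read 95.6, 44.5, 70, 42.3 and 80.5 in liver against 425, 444 and 361, a difference of -2.67 ± 0.29. Groups did not overlap for any of these 3 genes. Of 21 genes of activated fibroblasts, 4 were called lower and 1 higher, with a median of -0.77. Of 20 collagen chains 1 was called higher. Over all genes tested, 2.8% were called lower and 6.62% higher. The higher fibroblast gene was Lum, at 333, 76.9, 78.5, 433 and 752 in liver against 49.9, 16.8 and 29.2 (2.95 ± 0.78). Its call was lost in 11 alternatives (limma adjusted p = 0.000306 to 0.171). Of the lower calls, Lrrc15 kept its call in all alternatives. That of Grem1 was lost without post_SC 3 (adjusted p = 0.0623, with 0.00261 to 0.0623 over its alternatives). That of Tnc was lost in 4 (0.00923 to 0.108). The summed fibroblast list was 1621, 519, 512, 1737 and 2672 in liver and 1343, 934 and 1159 in the fat pad.

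Some vessel-associated genes were lower in liver. Emcn, endomucin of venous and capillary endothelium, read 20.1, 11.9, 13.7, 13.5 and 25 in liver against 57.4, 48.1 and 52.7, a difference of -1.64 ± 0.26, with -0.33 ± 0.26 and no call in untreated tumors. Higd1b, a pericyte gene, read 0, 0, 0.0917, 0.171 and 0.176 against 9.58, 7.16 and 7.16, a difference of -3.04 ± 0.22, and Mcam, an adhesion molecule of vessels, differed by -1.80 ± 0.30. Of 16 endothelial genes 2 were called lower and of 10 pericyte and smooth muscle genes 2, beside 2.8% of all genes tested. The endothelial calls were Emcn and Egfl7, and that of Egfl7 was lost in 5 alternatives (limma adjusted p = 0.00937 to 0.0923). Of 14 genes of epithelial-mesenchymal transition 2 were called higher and 3 lower, beside 6.62% and 2.8% of all genes tested. Snai2 (1.53), a repressor of epithelial genes, was higher and S100a4 lower, each called in all alternatives. Cdh2, also higher, lost its call in 8 alternatives (limma adjusted p = 3e-05 to 0.146). Twist1 and Twist2, also lower, lost theirs in 2 (0.00643 to 0.093) and 3 (0.00972 to 0.127).

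No carcinoma gene of the list passed the test between the treated sites. Krt8 read 752, 561, 494, 404 and 627 in liver and 588, 620.5 and 699 in the fat pad, overlapping groups with a difference of -0.19 ± 0.22 (limma adjusted p = 0.574). Of 26 carcinoma genes limma called 0, and 3 had an unadjusted p under 0.05. Differences were negative for 20 of the 26. Groups did not overlap for 5 with liver lower, beside 13.7% of all genes tested. Among them were Krt18 (-0.95), Cldn4 (-1.59) and Esrp1 (-1.42). The median difference of the list was -0.63, against -2.52 with 20 called lower in untreated tumors, where 32.6% of all genes tested were called lower. The summed list was 8843, 10259, 8676, 5935 and 5708 in liver and 9103, 9025 and 10905 in the fat pad. Set-apart genes take up to 57.1% of an untreated liver library, which lowers every other gene on this scale, and with rescaling without them the untreated median was -1.90 with 13 called lower and the treated one -0.43.

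Most glucose handling and hypoxia genes were not called between the treated sites, and a few, transporters among them, were called higher in liver. Slc2a3, the glucose transporter GLUT3, read 18.7, 19.8, 15.5, 18 and 8.59 in liver against 1.01, 2.14 and 2.15, a difference of 2.61 ± 0.31 (limma adjusted p = 0.00191). Slc16a3, the lactate exporter MCT4, read 45.8, 35.1, 32.2, 33.6 and 57.3 against 9.62, 19.3 and 10.2, a difference of 1.61 ± 0.28 whose call was lost without post_SC 1 or post_SC 3 (adjusted p = 0.0604 and 0.0623, 0.00489 to 0.0623 over its alternatives). Pfkfb4, a regulator of glycolytic flux, differed by 1.49 ± 0.26. Every liver library exceeded every fat pad library for these 3 genes. Slc2a1, the glucose transporter GLUT1, differed by 0.12 after treatment and was not called, against -2.54 ± 0.40 before. Slc2a3 is also made by neutrophils, and its level moved with the neutrophil list in being lowest in post_Liver 5. The part of neutrophils in its difference was not tested.

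Over the whole glycolysis list, 3 of 21 genes were called higher and 0 lower after treatment, with a median of 0.18. Of all genes tested, 6.62% were called higher after treatment. Differences of the list were positive for 17 of the 21. Groups did not overlap for 7 with liver higher and 1 with liver lower, beside 14.1% and 13.7% of all genes tested. In untreated tumors 17 had been called lower in liver, with a median of -1.10, where 32.6% of all genes tested were called lower. The change in site difference was called for 10 of the 21 genes, beside 2.98% of all genes tested for it. The count was 5 when rescaled without the set-apart genes and 16 without pre_Liver 2. It was 5 or 6 without pre_Liver 3, any 1 of the pre_SC libraries, post_SC 1 or post_SC 3. On that rescaling the untreated median was -0.39 with 9 called lower and the treated one 0.40 with 5 called higher. Hypoxia targets outside glycolysis had a median of 0.16 after and -1.26 before treatment, with 18 of their genes called lower before and 1 of 24 called higher after (Ak4, which was set apart). Rescaled without the set-apart genes, the hypoxia median was -0.53 before, with 11 called lower, and 0.37 after, with 2 called higher, and the change was called for 4. The change was called for 6 of them, for 11 without pre_Liver 2, for 10 without post_Liver 4, and for 2 to 4 without any 1 of the other libraries except pre_Liver 1 (8). Of 25 genes of the cell cycle limma called 0 after treatment, 0 also at an unadjusted p under 0.05, with a median of 0.13. The change was called by limma for 0 of the 25, 10 with an unadjusted p under 0.05, and for 12 without pre_Liver 2.

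**Figure D4:**
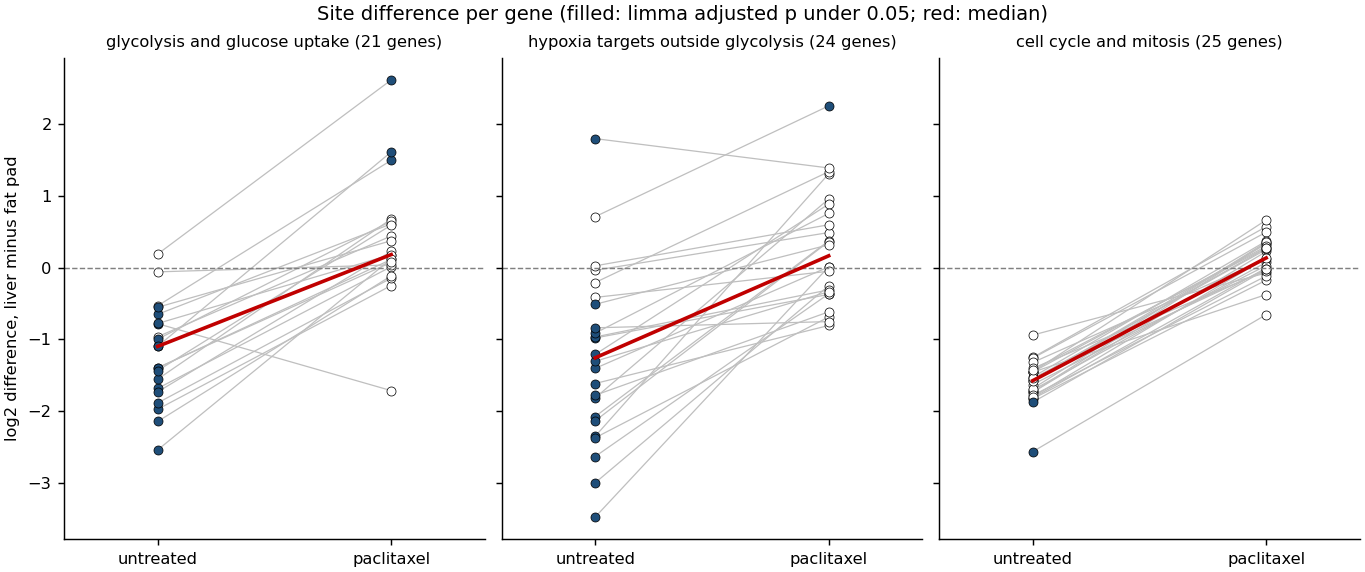
Site difference (log2, liver minus fat pad) of each gene of the glycolysis list (21 genes), the hypoxia list (24) and the cell cycle list (25), with a line joining its untreated to its treated value. Filled points are called genes and the red line is the median, which moves from -1.10 to 0.18 for glycolysis and from -1.26 to 0.16 for hypoxia.

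Genes tied to the drug or to stress were read next, beside 9.41% of all genes called in either direction. Tubb3, a neuronal beta-tubulin, read 2.23, 2.33, 1.82, 1.81 and 1.08 in liver against 0.169, 0.114 and 0.0575, a difference of 1.34 ± 0.24. Its values were low at both sites, and it passed the filter on the mean through liver. Of 17 tubulins 2 were called, the other being Tubb1. The call of Tubb1 was lost without post_SC 1 or post_SC 3 (limma adjusted p = 0.0512 and 0.0524, with 0.00141 to 0.0524 over its alternatives). The call of Tubb3 was lost in 4 alternatives, among them without post_SC 1 or post_SC 3 and after quantile normalization (adjusted p = 0.0508, 0.0565 and 0.0547, with 0.00337 to 0.0565 over its alternatives). Of 8 drug efflux pumps limma called 0, with 2 at an unadjusted p under 0.05. Gdf15, a stress cytokine, read 5.92, 14.7, 14.4, 12.7 and 10.4 in liver against 0.0939, 0.189 and 0.173, a difference of 3.40 ± 0.30 (limma adjusted p = 0.000617), with 2.30 ± 0.48 before treatment. It stands on the p53 list, of which 2 of 18 genes were called. Cdkn1a, the cell cycle inhibitor p21 and a main p53 target, read 72.6, 30.9, 27.4, 81.1 and 89.4 against 25.5, 49.7 and 42.9, overlapping groups that were not called. Of 28 interferon response genes limma called 0, with 1 at an unadjusted p under 0.05. Of 25 cytosolic ribosomal protein genes limma called 0, and 0 at an unadjusted p under 0.05, with a median of -0.39.

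Over all genes, 1313 of 13952 (9.41%) were called after treatment, 923 higher and 390 lower in liver, and 3883 (27.8%) had groups that did not overlap. Of the calls 70.3% were higher in liver, a share that was 50.6% after quantile normalization (704 higher and 688 lower). The median difference over all genes was -0.08, and rescaling without the set-apart genes moved it to 0.13. Among the 12591 genes not set apart, 543 (4.31%) were called higher and 386 (3.07%) lower. Before treatment 6475 of 13648 genes (47.4%) had been called, 2032 higher and 4443 lower, a count of 2134, 3010 and 2272 without pre_SC 1, 2 or 3 and 3505, 4295 and 4310 without pre_Liver 3, 4 or 5. Of the genes not set apart and tested at both times, 509 were called higher after treatment, of which 199 (39.1%) had been called higher before, which is 24.5% of the 811 called higher before. Of 355 called lower after, 279 (78.6%) had been called lower before, which is 6.33% of the 4409 called lower before. The treated and untreated comparisons share no library.

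**Figure D5:**
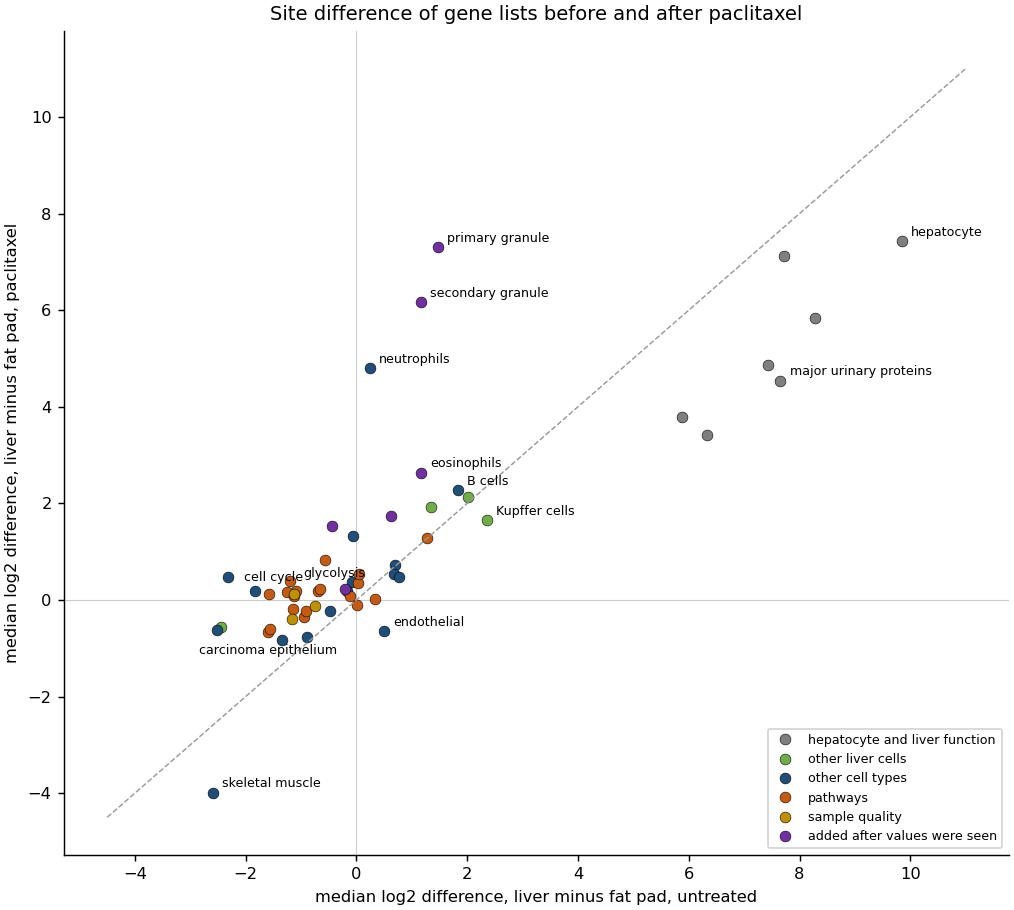
Median site difference (log2, liver minus fat pad) of each gene list with at least 4 tested genes, before paclitaxel on the horizontal and after it on the vertical axis, with a dashed line of equality. The neutrophil list lies far above the line, at 0.25 before and 4.79 after, while the hepatocyte list lies below it, at 9.85 and 7.43.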

How the data were processed

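Poly(A) RNA-seq values of 16 libraries stood in 3 tables deposited by the authors. One holds FPKM (fragments per kilobase, scaled to library size) of liver tumors, deposited by the authors with 2 decimals, and another holds TPM (a length-corrected share) of fat pad tumors, also deposited by the authors. The third, deposited by the authors for untreated tumors of both sites, holds values on a scale called a score here, as 2376 of its genes have values below 0. Units were read from the values. Per the submitters' processing notes, fastp and StringTie were used with GRCm38. The parameters, annotation and read depth are not given in the sources used here, and whole reads could not be recovered, so that counting error is not covered by any value.

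FPKM and TPM were each rescaled to sum to 1000000 over the 17428 genes shared by both tables. Of the fat pad gene names, 364 altered ones were restored and 25 that resembled dates or were repeated were left out. The untreated table, whose values appear adjusted for batch, served only to check the scale. The check used pre_Liver 1 to 3 and pre_SC 1 to 3, and pre_Liver 4 and 5 were left out. Over 17149 genes, rescaled site differences and those of that table had a Pearson correlation of 0.99995 and a slope of 1.01. These differences were not on a log scale, so very abundant genes weigh most and the check says little about the scale of other genes. Treated liver and treated fat pad values have no table in common.

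limma 3.58.1 in R 4.3.3 was fitted to log2(value + 1) with group as the only term and a mean-variance trend, on genes with a mean of at least 1. A fit of 8 libraries was made after and another before treatment, and a fit of 16 libraries for the change between them. It was tested on simulated data. Gene lists, members and tests were chosen with earlier results of these data known, and 6 lists were added after the values were seen. Named genes were the 5 set-apart genes highest in liver, the 12 highest and 12 lowest called genes not set apart with groups that do not overlap and a mean of at least 5 in the higher group, up to 4 members of each described list by p, a preset list of markers, and members moving against their list. The described lists were narrowed after the values were seen. Other members given with values were also chosen after their values were seen. Alternatives were another pseudocount, filter, scaling, moderation and fit, a replicate block, post_Liver 2 and 3 averaged or both left out (the last added after the data were seen), and each library left out. 1 gene is not reported here. A list of mitochondrially encoded genes had no tested member. Figures were drawn with matplotlib 3.10.9 in Python 3.11.15.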

Additional observations from a re-analysis of the deposited data

Results flagged for a closer look

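Of 168 named genes, 17 had a library among the 5 treated liver tumors that stood far from the other 4 (a gap of more than 0.71 of the range by Dixon's criterion, which chance gives in about 1 of 20 groups). For 12 genes it was post_Liver 5. This library was low for neutrophil genes: Ngp was 1030 rescaled TPM against 2960 to 4450 in the others, Mpo 124 against 413 to 637, Elane 135 against 412 to 647, S100a8 920 against 3710 to 5810, Ms4a3 29 against 115 to 155, Ifitm6 99.6 against 379 to 530, Cd177 38.2 against 124 to 166, and the basophil gene Mcpt8 5.58 against 19.6 to 28.9. It was high for Grem1 (2.04 against 0 to 0.361), Nkg7 (105 against 63.7 to 72.6), Ltbp2 (57.2 against 17.4 to 24) and Csf2ra (146 against 64.1 to 80.4). For the other 5 genes it was post_Liver 4, the library with the most hepatocyte RNA. There the epithelial genes Cldn4 (67.2 against 336 to 490) and Cdh1 (30.8 against 125 to 196) and the efflux pump Abcc1 (8.04 against 13.4 to 15.8) were low, and Gp5 (3.71 against 1.63 to 1.94) and Tubb1 (3.78 against 1.56 to 2) were high.

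For 39 named genes the site difference changed between untreated and treated tumors by the limma interaction term over all 16 libraries. Changes are given on the log2 scale, liver minus fat pad, after minus before. For genes of neutrophils and their precursors the change was 6.66 for Ngp, 6.51 for Camp, 5.3 for Mpo, 5.51 for Elane, 4.41 for Prtn3, 5.85 for Ctsg, 5.02 for Ms4a3, 6.35 for S100a8, 6.68 for S100a9, 5.97 for Ifitm6, 5 for Cd177 and 7.87 for BC100530. It was 2.69 for Ly6g, 2.3 for Csf3r, 1.79 for Csf2ra, 3.89 for Cebpe, 2.05 for Gfi1, and 4.55 for Mmp8. For other blood cells it was 2.48 for Ppbp, 4.51 for Pf4, 1.48 for Gp9, 5.22 for Mcpt8, 3.58 for Ly6c2 and 3.56 for Gzmf. For glucose and hypoxia genes it was 2.42 for Slc2a3, 2.66 for Slc2a1, 2.02 for Pfkfb4, 2.7 for Slc16a3, 1.64 for Pgam1, 2.76 for P4ha1, 1.66 for Fam162a and 3.48 for Car9. For epithelial and stromal genes it was 3.7 for Ehf, 2.19 for Twist2, 2.72 for Grem1, 4.33 for Mmp13 and 3.16 for Crabp1, and the vessel genes Cldn5 (-2.19) and Higd1b (-2.26) moved the other way.

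The calls of 21 of the 39 genes held without the set-apart genes, under median of ratios scaling and with each library left out, with no other scaling tried. The other 18 were Ehf, Twist2, Grem1, Mmp8, Cldn5, Ly6c2, Gzmf, Ppbp, Gp9, Pfkfb4, Fam162a, Ly6g, Csf3r, Csf2ra, Cebpe, Slc2a1, Car9 and Mmp13. Of these, Pfkfb4 and Cebpe lost their call when rescaled without the set-apart genes (adjusted p = 0.0518 and 0.0515) and in no other alternative, and Ly6c2 and Csf3r did so without pre_SC 3 (0.0591 and 0.0513) and in no other. Adjusted p reached at most 0.173 (Ppbp) among the 18.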

How the results depend on the processing

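The 923 higher genes became 1436 in a fit of all 16 libraries, 2356 without both post_Liver 2 and 3, and 315 to 1111 with a single library left out. The 390 lower genes became 688 with quantile normalization, 657 in the fit of 16 libraries, 2484 without both post_Liver 2 and 3, and 94 to 431 with a library left out. The 6475 genes called before treatment became 2134 to 9341 with a library left out. The 413 genes with a changed site difference became 237 when rescaled without the set-apart genes and 92 to 2599 with a library left out. For each of these, causes other than fewer samples were not tested. Of genes called between treated sites with all libraries, 0 changed sign in any setting of that comparison. For the 168 named genes, call and direction stood in 2858 recomputed values, 241 lost the call and 70 gained it. Of 56 list medians after treatment, 21 changed sign in at least 1 setting. Among lists with called genes and a move larger than the SD between treated liver libraries, the median of the collagen list became 0.62 without both post_Liver 2 and 3, that of mast cells and basophils to -0.36 without post_SC 3 (1.45 without post_SC 2), and that of p53 targets to -0.15 without post_SC 1 (0.30 without post_SC 3). Read depth is unknown, so differences among genes near 0 have no counting error.

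Whether replicate numbers pair the samples is not stated. Deviations of same-numbered libraries correlated at -0.048, 0.047 and 0.018, and those of differently numbered ones at -0.070 to 0.073. With 3 libraries of each site compared and hepatocyte content uneven among the liver libraries, these values cannot decide on pairing. With the number as a replicate block over replicates 1 to 3 of each site, 659 genes were called higher and 295 lower, and 771 of these 954 were called without it. Of 112 named genes called, 88 remained so. Tubb3 was among those lost (adjusted p = 0.056, with 0.00337 to 0.0565 over its alternatives), and 5 of 12 muscle genes were called lower.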

Other observations

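Functions of hepatocytes were all set apart, and the median of every such list was higher in liver. Of 4 major urinary protein genes tested, 1 was called higher. Of 25 cytochrome P450 and conjugation genes 17 were called higher in treated liver tumors, with a median difference of 4.87. Before treatment 25 had been called, with a median of 7.44. Among all genes tested, 6.62% were called higher after treatment and 14.9% before. Cyp3a11, a main drug-metabolising enzyme of mouse liver, read 217, 58.4, 44.1, 341 and 432 rescaled TPM in post_Liver 1 to 5 and 0, 0.0947 and 0 in post_SC 1 to 3, and was lowest in the libraries with the least albumin. Hamp, the iron hormone hepcidin, read 1178, 209, 147, 2482 and 898 against 0.507, 0.814 and 0.249. Of 13 bile acid and solute carriers 9 were called higher (3.43, against 6.33 before) and of 26 complement and coagulation genes 17 (3.78, against 5.88 before). By the interaction test limma called 0 of the 25 P450 genes, 12 with an unadjusted p under 0.05, beside 2.98% of all genes called.

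Of 29 chemokine genes 3 were called higher, beside 6.62% of all genes tested, with a median of 0.84. Ccl2, which attracts monocytes, read 27.2, 19, 18.4, 17.5 and 40.7 in liver against 14.2, 9.01 and 8.09, groups that did not overlap but were not called (1.12 ± 0.32, limma adjusted p = 0.0593). Of 14 unfolded protein response genes 2 were called higher and 1 lower. The hypoxia target Car9 read 12.9, 20, 11, 9.74 and 13.5 against 14.9, 6.66 and 21.1, with a difference of 0.01 ± 0.36 after a difference of -3.47 in untreated tumors.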
